A study of Mus musculus with 16 samples.

Results

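Methylation of lysine 36 on histone H3 is written and removed by a small set of enzymes, and the genes of 6 of them are described here across every deposited peak list. The genes are Nsd1, Nsd2, Nsd3, Setd2, Kdm2a and Kdm2b, 6 of 21887 protein-coding genes. They were chosen by name with earlier results of these data known, and every peak within their mm10 spans and 5 kb either side was taken. That gave 73 of 117176 peaks in 12 lists.

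The NSD proteins add 1 or 2 methyl groups to H3K36, and SETD2, which travels with elongating RNA polymerase II, adds the third methyl group in gene bodies. KDM2A and KDM2B are JmjC-domain demethylases of H3K36 that also carry a CXXC zinc finger, which binds CG dinucleotides free of DNA methylation. KDM2B brings a variant Polycomb repressive complex PRC1 to CG-rich promoters. In mouse embryonic stem cells (mESCs) the dimethyl form made by NSD1 limits the spread of H3K27me3, the mark of Polycomb repressive complex PRC2.

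The study asked how histone marks differ in mESCs without Mettl14, which encodes a subunit of the RNA N6-methyladenosine methyltransferase. Chromatin immunoprecipitation with sequencing was done for H3K4me3 (a mark of active and poised promoters), H3K27ac (active promoters and enhancers) and H3K27me3, with 2 Mettl14 CKO and 2 Mettl14 Control lists per mark, called knockout and control here. All cells were C57BL/6 mESCs, grown in serum medium with LIF, CHIR99021 and PD0325901, inhibitors of GSK3 and MEK. The labels state neither how Mettl14 was deleted nor whether the replicates came from separate cultures or clones. A Mettl3 knockout named in the series design and the 4 input libraries were not analysed here.

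Each list gives peak positions and widths alone, without heights or read numbers, so the depth behind a peak is unknown and a missing peak does not show that the mark is absent. The smallest width in every list is 501 bp. The H3K4me3 lists held 8055 to 8131 peaks in knockout and 2431 to 2859 in control cells, and covered 4.79-fold more bases in the knockout. H3K27me3 lists covered 2.15-fold more in the knockout and H3K27ac lists 1.12-fold more. The labels of the H3K27ac libraries name the H3K4me3 antibody, so for that mark the title was followed. H3K27ac peaks were found at 10 to 11 of 12 mESC marker genes in the knockout lists and at 10 in each control list, and at 0 to 1 of 8 fibroblast markers in any list. Of 6 primitive endoderm markers 0 to 1 had an H3K27ac peak in any list. Of 6 trophectoderm markers 2 to 3 had one in knockout and 0 to 2 in control lists. H3K4me3 was less even, at 10 of 12 mESC markers in each knockout list and at 9 and 5 in control replicates 1 and 2. Control replicate 2 had none at Pou5f1 and Nanog, among others. Trophectoderm markers with H3K4me3 numbered 2 and 3 in the knockout lists and 0 in each control list. For fibroblast and primitive endoderm markers the number was 0 to 1 in any list. The part of cells of these other types in the values below was not tested.

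The sequences around annotated starts of transcription are shown for Setd2 and Kdm2b because their H3K4me3 peaks can be placed against them. The RefSeq promoter table (GRCm38.p6, the assembly of mm10) matched these 2 of the 6 genes, and the lines run from 250 bases before to 50 bases after each start. The Setd2 line is chr9:110532347-110532646 on the plus strand. Kdm2b lies on the minus strand and has 2 groups of starts. The internal one is chr5:122900301-122900600 and the upstream one chr5:122989050-122989349. Capitals mark CG dinucleotides, the letters that a CXXC finger binds.
Setd2: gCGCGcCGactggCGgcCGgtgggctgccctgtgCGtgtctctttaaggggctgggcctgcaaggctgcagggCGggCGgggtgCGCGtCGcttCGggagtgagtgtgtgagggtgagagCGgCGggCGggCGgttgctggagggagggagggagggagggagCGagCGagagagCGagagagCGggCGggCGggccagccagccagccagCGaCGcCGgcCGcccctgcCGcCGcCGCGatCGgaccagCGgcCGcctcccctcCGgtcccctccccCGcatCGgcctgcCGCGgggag
Kdm2b internal start: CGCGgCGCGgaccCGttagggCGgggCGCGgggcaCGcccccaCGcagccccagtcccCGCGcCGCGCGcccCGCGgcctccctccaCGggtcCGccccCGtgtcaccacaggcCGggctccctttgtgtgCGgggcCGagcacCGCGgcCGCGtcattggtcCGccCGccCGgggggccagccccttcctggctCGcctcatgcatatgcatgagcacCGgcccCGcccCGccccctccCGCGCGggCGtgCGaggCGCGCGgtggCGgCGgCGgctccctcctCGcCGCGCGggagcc
Kdm2b upstream start: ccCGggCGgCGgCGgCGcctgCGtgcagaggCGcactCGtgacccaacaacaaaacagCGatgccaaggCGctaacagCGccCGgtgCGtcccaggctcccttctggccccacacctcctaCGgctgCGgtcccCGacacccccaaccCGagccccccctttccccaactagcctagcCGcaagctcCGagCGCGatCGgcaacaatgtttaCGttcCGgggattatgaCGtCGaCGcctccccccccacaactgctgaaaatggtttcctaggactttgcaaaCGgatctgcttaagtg

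These promoters differ in CG content. The Setd2 promoter holds 38 CG dinucleotides and is 77.3% G and C. The internal Kdm2b promoter holds 49 and is 81.7% G and C, with more CG than 99.0% of the 32851 promoters in the table. The upstream Kdm2b promoter holds 28 and is 63.7% G and C, and another upstream start of the table holds 18. The median over all promoters was 7. The GC box GGGCGG, searched on both strands, matched 7 times in Setd2, 6 times in the internal Kdm2b promoter and 1 time in the upstream one shown, overlaps included. It occurs in 35.7% of all promoters. The ETS core CCGGAA, searched on both strands, matched 1 time in each upstream Kdm2b promoter and is found in 14.9% of promoters. The CCAAT box, CCAAT on either strand, matched 1 time in the internal Kdm2b promoter and is found in 37.4%. TATAAA, present on either strand in 13.6% of promoters, and the palindrome CACGTG, present in 7.15%, matched in none of the Setd2 and Kdm2b entries.

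H3K4me3 was called at all 6 genes in both knockout lists, against 30.4% of all protein-coding genes and 41.2% of the 1310 genes whose spans lie within the members' range of 77291 to 118607 bp. In both control lists it was called at 1 of 6, Nsd1, against 4.82% of all genes and 5.27% of those of like span. At Nsd2 and Kdm2b each knockout list had it and no control list did, a pattern met by 15.4% of all genes and 19.8% of those of like span. For 5 of the 6 genes, all but Nsd3, both knockout lists held more covered bases than both control lists, against 28.4% of all genes and 38.7% of those of like span. The genes were chosen with earlier results of these data known, so these values are given as a description and no test was made on them. With 2 lists against 2, an exact permutation test could give no p below 0.333.

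**Figure D1:**
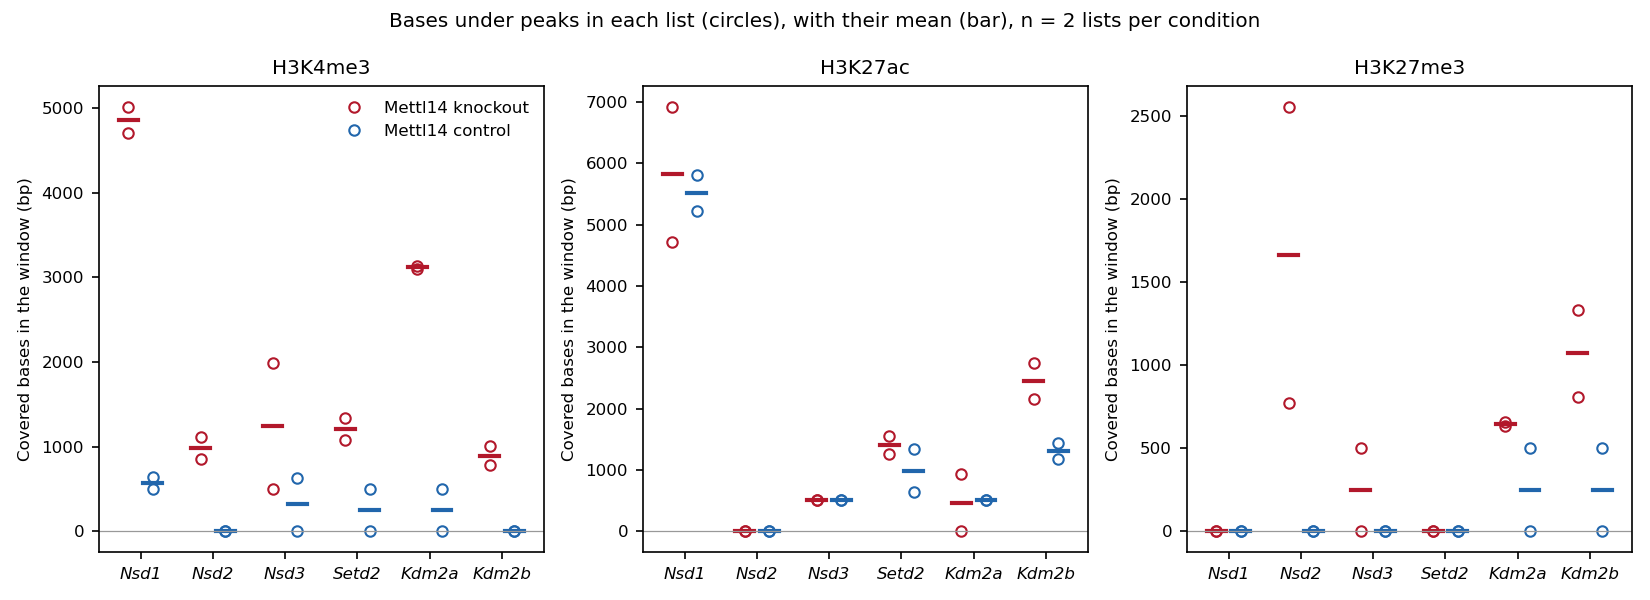
Bases under peaks (bp, y axis) within each gene's span and 5 kb either side, for H3K4me3, H3K27ac and H3K27me3, with Mettl14 knockout lists in red left of Mettl14 control lists in blue. Circles are single lists and bars the mean of 2. For H3K4me3 Nsd1 lies at 4709 and 5013 bp in the knockout, against 501 and 637 bp in the control. These values include a peak past the gene, near Rab24 and Prelid1. Over the span alone they were 3323 and 3246 bp in the knockout, against 0 and 637 bp in the control.

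Control replicate 2 held 4 of the 5 control H3K4me3 peaks at these genes. Without that list, 5 genes were called in both knockout lists and in no control list. No share of all genes is given with a list left out, so nothing is read from the count of 5. The ratio of summed bases was then 4.62 on the log2 scale, against 3.15 with all lists. The control side of that 4.62 is 1 peak of 501 bp. It lies past the end of Nsd1, within 1 kb of the ends of Prelid1 and Rab24, and outside every member's span. Over the 6 genes together H3K4me3 covered 11069 and 13557 bp in the knockout lists, against 501 and 2271 bp in the control lists, an 8.88-fold difference of the means. The median difference per gene, knockout minus control, was 974 bp, beside 0 bp over all protein-coding genes and 314.5 bp over those of like span. Each H3K4me3 list was also trimmed to as many of its widest peaks as the shortest list holds. Then 0 genes were called in the knockout alone, and 2, Nsd1 and Kdm2a, had more bases in both knockout lists. That cut sets the widest knockout peaks against nearly all control peaks. No share of all genes is given for it, so nothing is read from these counts.

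**Figure D2:**
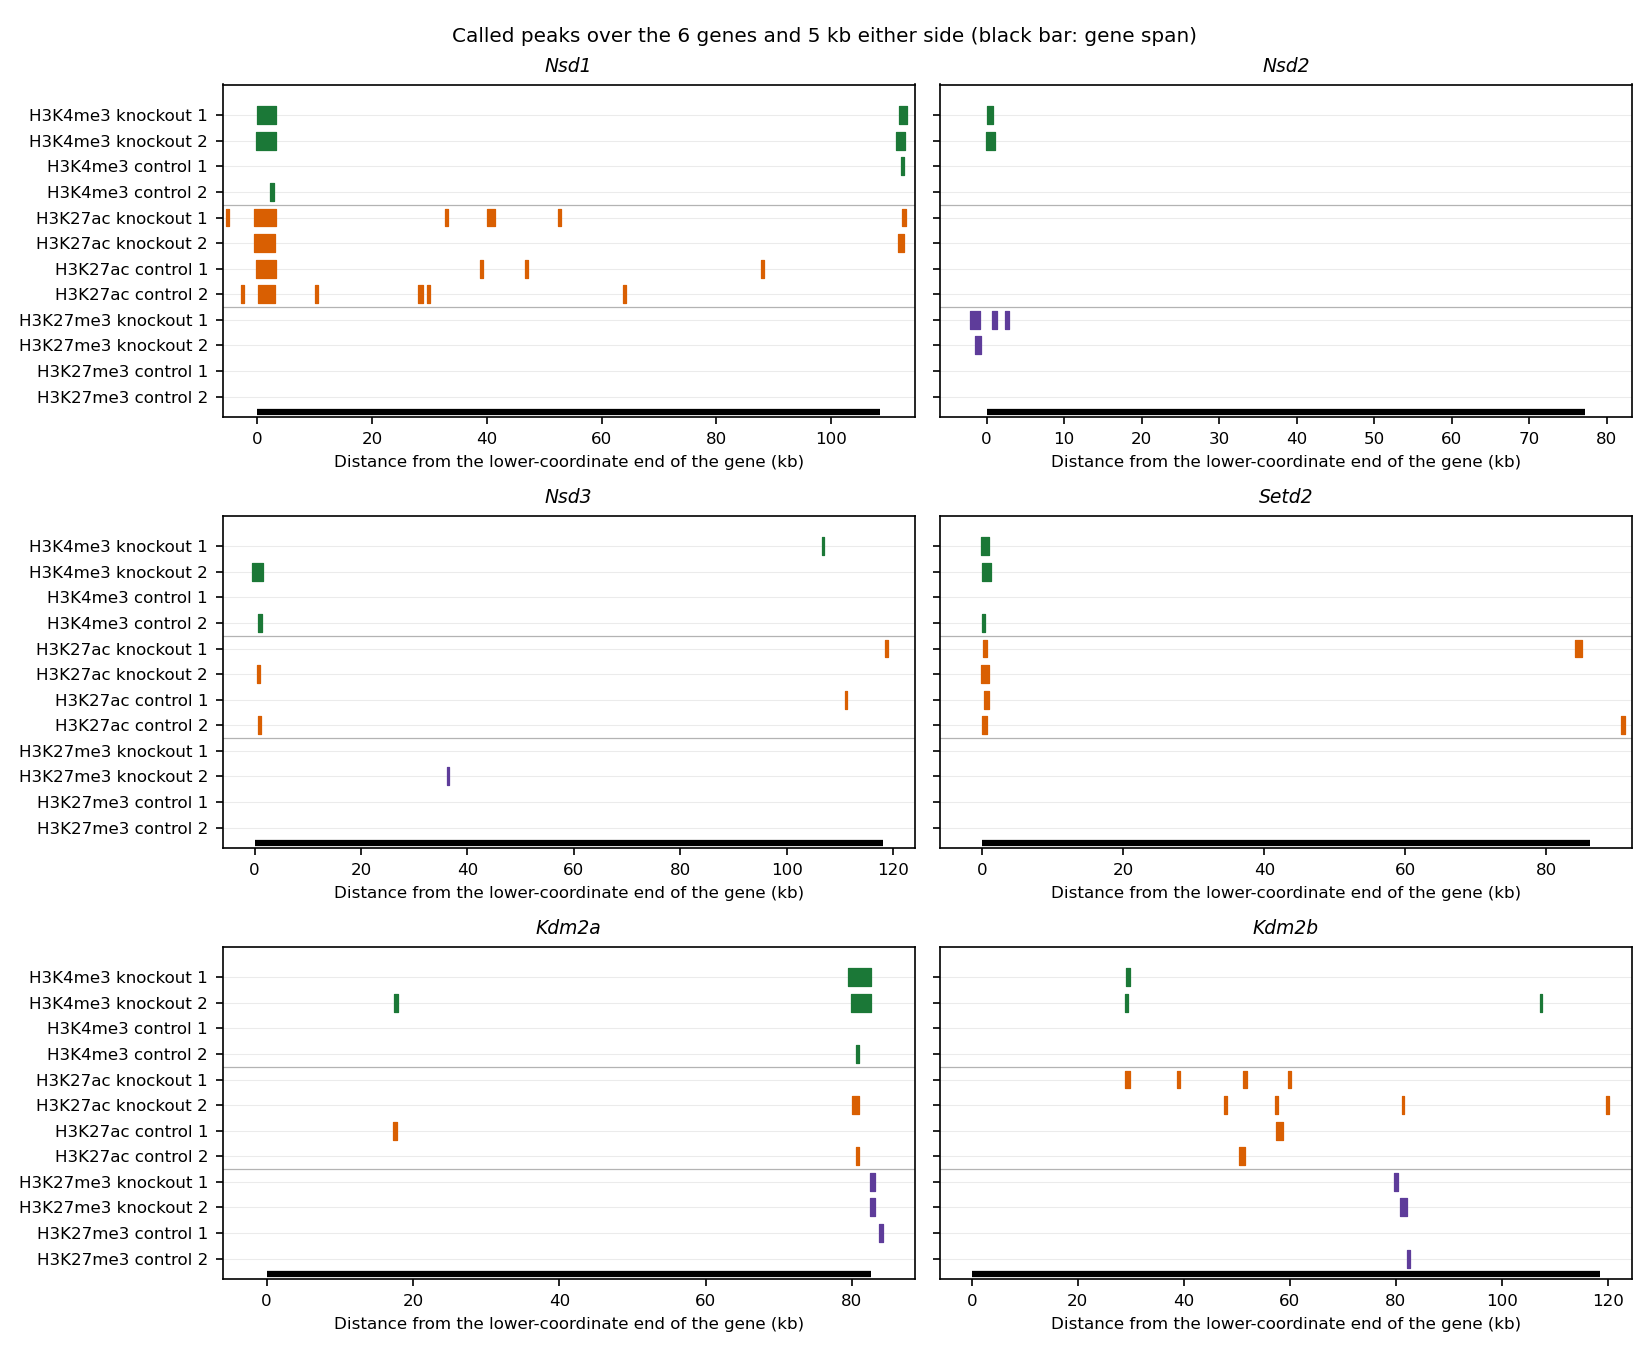
Every peak of the 12 lists over each gene and 5 kb either side, by distance from the lower-coordinate end of the gene (kb), with the gene span as a black bar and knockout rows above control rows of each mark. H3K4me3 in green sits at 1 end of most genes, and inside the gene at Kdm2b, while many H3K27ac peaks in orange stand in 1 list alone.

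Among the writers, Nsd1 (chromosome 13, 55209782 to 55318325) carried the widest H3K4me3 peaks. They spanned its lower-coordinate end at 55209692 to 55213104 (3413 bp) in knockout replicate 1 and at 55209658 to 55213027 (3370 bp) in knockout replicate 2. Each was wider than 99.7% of its own list, rank 22 of 8131 and rank 21 of 8055. Control replicate 1 had no peak there, and control replicate 2 had 637 bp starting 2.27 kb inside the gene. That control peak lies wholly within the stretch called in both knockout lists, so Nsd1 counts as called in the control although its end itself was not. The gene table gives no strand for Nsd1, Nsd2, Nsd3 or Kdm2a, and which end starts transcription is not stated for them.

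A further H3K4me3 peak in the Nsd1 window belongs by position to other genes. It lay past the higher-coordinate end, within 1 kb of the ends of Rab24 and Prelid1, with 1296 and 1643 bp in the knockout lists, against 501 bp in control replicate 1 and no peak in control replicate 2. It is why control replicate 1 counts Nsd1 as called, while control replicate 2 does so through its 637 bp peak inside the gene. Limited to 1 kb around annotated starts, or around gene ends where the table gives no start, 4 genes had H3K4me3 in the knockout lists alone, namely Nsd1, Nsd2, Kdm2a and Kdm2b. No share of all genes is given for these mixed windows, so nothing is read from that count. By gene ends alone, in windows of 1 kb at either end of every gene, 3 members met that rule, Nsd1, Nsd2 and Kdm2a, against 13.5% of protein-coding genes.

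H3K27ac at the same end of Nsd1 was called in all 4 lists. The peaks were 3825 and 3637 bp wide in the knockout lists, against 3594 and 3036 bp in the control lists, so the conditions do not overlap, but the narrowest knockout peak and the widest control peak differ little. In the knockout the H3K4me3 and H3K27ac peaks overlapped by 4030 and 4292 bp over the whole window, while in control replicate 1 the nearest peaks of these marks were 23867 bp apart. The wide H3K27ac peak of control replicate 1 therefore stood without H3K4me3. Over the whole window H3K27ac covered 6916 and 4725 bp in the knockout and 5226 and 5812 bp in the control, and these ranges overlap. No list held H3K27me3 at Nsd1.

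Nsd2 (chromosome 5, 33820676 to 33897966) differed from Nsd1 in all marks. H3K4me3 peaks of 859 and 1114 bp lay at its lower-coordinate end in the knockout lists, and neither control list had one. They were wider than 49.2% and 68.6% of their lists, whose median widths were 883 and 866 bp. The peaks also lie within 1 kb of an end of the predicted gene Gm52782. No list held H3K27ac, and Nsd2 was the 1 gene of the 6 without any, against 49.0% of all protein-coding genes and 31.4% of those of like span.

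H3K27me3 lay on both sides of the H3K4me3 peak of Nsd2 in knockout replicate 1, and only on its outer side in knockout replicate 2. Knockout replicate 1 had 3 H3K27me3 peaks, of 1343, 710 and 501 bp, and knockout replicate 2 had 1 of 773 bp, against none in either control list. The replicates share the stretch before the gene, at 33818555 to 33819897 in replicate 1 and at 33819174 to 33819946 in replicate 2, ahead of the lower-coordinate end. In replicate 1 the 710 bp peak overlapped H3K4me3 by 180 bp, and in replicate 2 the nearest peaks of the 2 marks were 653 bp apart. Taken over the span alone, without flanks, Nsd2 had no H3K27me3 in knockout replicate 2.

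At Nsd3 (chromosome 8, 25601601 to 25719667) the replicates differed from each other. Knockout replicate 2 had 1983 bp of H3K4me3 over the lower-coordinate end and control replicate 2 had 632 bp inside it. Knockout replicate 1 had only a 501 bp peak 106.55 kb into the gene, and control replicate 1 had none. The knockout and control ranges overlap. H3K27ac was called at the minimum width of 501 bp in every list, but in 2 of them far from that end. In knockout replicate 1 it lay past the other end, within 1 kb of Plpp5 and Nsd3, and in control replicate 1 it lay 110.93 kb into the gene. A single 501 bp H3K27me3 peak stood in knockout replicate 2.

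Setd2 (chromosome 9, 110532500 to 110618633), the gene of the trimethylating enzyme, had H3K4me3 over its promoter in 3 lists. The peaks were 1081 and 1343 bp wide in the knockout lists and 501 bp in control replicate 2, with none in control replicate 1. Each of the 3 covered the annotated start shown above, and they covered 300 and 261 of the 300 bases printed in the knockout lists and 204 in control replicate 2. H3K27ac stood near the same start in all 4 lists, with 501 and 1256 bp in the knockout and 635 and 762 bp in the control, ranges that overlap. Other H3K27ac peaks near the far end were in single lists. No list held H3K27me3 at Setd2.

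**Figure D3:**
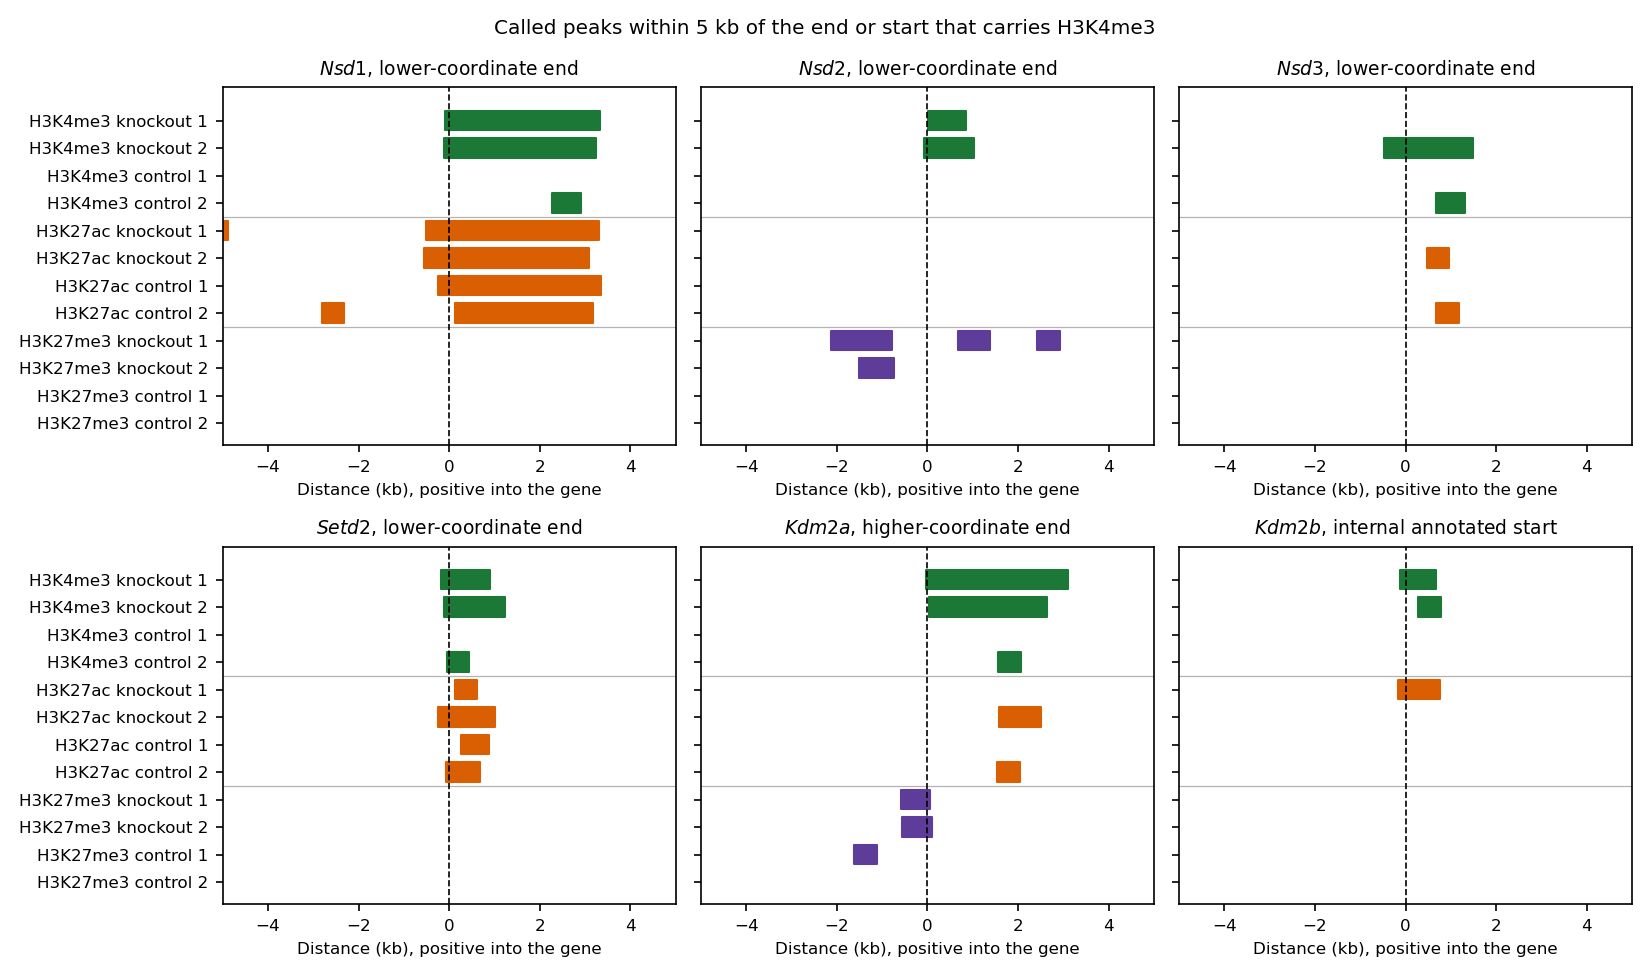
Peaks within 5 kb of the gene end that carries H3K4me3, or of the internal annotated start of Kdm2b, by distance in kb with positive values into the gene and knockout rows above control rows. The wide knockout H3K4me3 peaks of Nsd1 and Kdm2a reach into the gene, and H3K27me3 in purple lies outside the H3K4me3 peaks of Nsd2 and Kdm2a except for overlaps of 66 to 180 bp.

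Of the demethylase genes, Kdm2a (chromosome 19, 4316144 to 4398721) had the wider H3K4me3. Peaks of 3134 and 2601 bp stood at its higher-coordinate end in the knockout lists, wider than 99.5% and 98.6% of their lists. Control replicate 2 held 501 bp, ending 1.57 kb inside that end, and control replicate 1 held none. Knockout replicate 2 had a further 501 bp peak 17.4 kb from the lower-coordinate end, where control replicate 1 had its H3K27ac peak. The gene 9430078G10Rik lies within the same stretch, so its peaks cannot be told from those of Kdm2a. H3K27ac there was limited to 930 bp in knockout replicate 2 and 501 bp in control replicate 2, while knockout replicate 1 had none and control replicate 1 had 501 bp at the site near the other end.

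H3K27me3 abutted the H3K4me3 peak of Kdm2a in both knockout lists. Its peaks were 633 and 660 bp wide, crossed the higher-coordinate end and overlapped H3K4me3 by 94 and 66 bp. Control replicate 1 had a separate 501 bp peak, 1.62 kb from its far edge to the gene end, and control replicate 2 had none. The marks thus met at the gene end in the knockout lists and did not in the control lists.

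Kdm2b (chromosome 5, 122870664 to 122989270) carried H3K4me3 inside the gene and not at its outer end. In knockout replicate 1 a 785 bp peak covered the internal start and 166 of the 300 bases printed above. In knockout replicate 2 a 501 bp peak ended 274 bp downstream of that start. The 2 peaks overlap each other, and neither control list had a peak. Without peaks of the minimum width knockout replicate 2 had no H3K4me3 at Kdm2b, which ends the call in both knockout lists. Neither upstream start was under H3K4me3 in any list, the nearest peak being 10160 bp away in knockout replicate 2. As background, the internal promoter gives a shorter KDM2B protein that lacks the JmjC domain but keeps the CXXC finger.

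H3K27ac in Kdm2b was scattered. It covered 2740 and 2150 bp in the knockout lists, against 1433 and 1179 bp in the control lists. Kdm2b was the 1 member with more bases of this mark in each knockout list than in either control list, against 10.0% of all genes and 14.9% of those of like span. The bases come from 4 peaks in each knockout list and 1 in each control list, and no position was shared by the replicates of a condition, while 2 regions were shared by 1 knockout and 1 control list. A 935 bp peak in knockout replicate 1 covered the internal start, and 17914 bp or more separated that start from the nearest H3K27ac peak of the other lists. Without peaks of the minimum width the difference, knockout minus control, was -113.5 bp and so had the opposite sign to the 1139 bp with all peaks.

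H3K27me3 in Kdm2b lay 79.62 kb or more from its lower-coordinate end, far from every annotated start. The peaks were 811 bp in knockout replicate 1 and 1333 bp in knockout replicate 2, against 501 bp in control replicate 2 and none in control replicate 1. The knockout peaks did not overlap each other, and that of replicate 2 overlapped the control peak. The peak of knockout replicate 2 and that of the control are within 1 kb of an end of the gene Gm33118, and in knockout replicate 2 a 501 bp H3K27ac peak lay inside the H3K27me3 peak.

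Over the 6 genes H3K27ac was called in all 4 lists at 4, Nsd1, Nsd3, Setd2 and Kdm2b, against 17.1% of all genes and 28.4% of those of like span. The members with a call numbered 4 in both knockout lists and 5 in both control lists, against 26.3% and 21.4% of all genes and 40.8% and 33.8% of those of like span. No member had it in the knockout lists alone, against 2.93% of all genes and 4.12% of those of like span. The summed bases were 11706 and 9562 bp in the knockout and 8296 and 9336 bp in the control, a 1.21-fold difference. Of 30 merged H3K27ac regions in the windows 23 stood in 1 list alone (76.7%, beside 68.3% of all H3K27ac regions). In all 4 lists stood 2 of the 30, at the ends of Nsd1 and Setd2, beside 2913 of all 36453 H3K27ac regions.

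H3K27me3 was called in both knockout lists at 3 genes, Nsd2, Kdm2a and Kdm2b, against 17.0% of all genes and 24.7% of those of like span. It was called in both control lists at 0, against 10.3% of all genes and 13.7% of those of like span. Nsd1 and Setd2 had none in any list, against 67.4% of all genes and 54.9% of those of like span. For the same 3 genes both knockout lists covered more bases than both control lists, against 10.3% of all genes and 14.7% of those of like span. Nsd2 alone had it in the knockout lists and not in the control lists, against 3.06% of all genes and 3.97% of those of like span. The summed bases were 3998 and 3267 bp in the knockout, against 501 bp in each control list. Of 8 merged regions 5 stood in 1 list alone (62.5%, beside 76.0% of all H3K27me3 regions).

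The edge of the window decided few peaks. A 501 bp H3K27ac peak at Nsd1 (knockout replicate 1) lay 119 bp inside it, and a 632 bp one at Setd2 (control replicate 2) lay 581 bp inside. In the next 5 kb outside stood 6 peaks of 501 to 2306 bp, the nearest 404 bp from the Setd2 window (H3K27ac, knockout replicate 1). With a flank of 10 kb, Nsd3 gained a 501 bp H3K4me3 peak in knockout replicate 1, and then all 6 genes had more H3K4me3 bases in both knockout lists than in both control lists. That peak stood 3726 bp beyond the 5 kb window, past the higher-coordinate end. The Nsd3 peaks of knockout and control replicate 2 were at the other end. No share of all genes is given for the wider flank, so nothing is read from the count of 6.

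Other genes of H3K36 methylation were taken from a list of 22 writers, erasers and readers, read in the same windows. H3K4me3 was called in both knockout lists at 12 of 22, against 30.4% of all genes, and in both control lists at 2, Mtf2 and Morf4l1, against 4.82%. At 10 of 22 each knockout list had more H3K4me3 bases than either control list, against 28.4% of all genes, and the reverse held at 0, against 0.119%. H3K27ac stood in all 4 lists at 9 of the 22, against 17.1% of all genes, and H3K27me3 at 1, Phf19, against 8.5% of all genes. The list is a mixed one in function, since KDM4D acts mainly on H3K9 and MTF2 and PHF19 are cofactors of PRC2.

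Of these 22 genes, 4 had H3K4me3 in the knockout lists alone, against 15.4% of all genes, and nothing particular to the list is read from that count. Glyr1, which encodes a PWWP-domain reader of H3K36me3, had 1690 and 1479 bp in the knockout and none in the control, in peaks that also touch the end of Ubn1. Kdm4d had 1178 and 805 bp, in peaks it shares with the neighbouring gene Cwc15. Dnmt3a, a DNA methyltransferase whose PWWP domain reads methylated H3K36, had 629 and 1142 bp, in peaks that do not overlap between the replicates. Kdm4a, a demethylase of H3K9 and H3K36, had 501 and 1498 bp. Of the 1498 bp in knockout replicate 2, 848 bp lay at an end of Kdm4a and 650 bp outside its span, near St3gal3. Kdm4a was also the 1 gene of the list with H3K27ac in the control lists alone, with none in the knockout lists and 1138 and 707 bp in the control lists, a pattern met by 1.03% of all genes. Those control peaks of Kdm4a do not overlap between the replicates.

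H3K27me3 was called in both knockout lists at 4 of the 22, against 17.0% of all genes, a count from which nothing is read either. Riox1, a JmjC-domain oxygenase reported to demethylate H3K36, had 845 and 501 bp in the knockout and none in the control, beside H3K4me3 of 1448 and 1361 bp in the knockout lists and 501 bp in 1 control list. Zmynd11, a reader of H3K36me3 on histone H3.3, had 501 and 501 bp in the knockout and none in the control. Smyd2, a lysine methyltransferase, had 652 and 644 bp in the knockout, against 632 bp in control replicate 2 and none in control replicate 1, in peaks that do not overlap. Phf19 had 4486 and 1269 bp in the knockout and 501 and 1643 bp in the control, ranges that overlap.

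**Figure D4:**
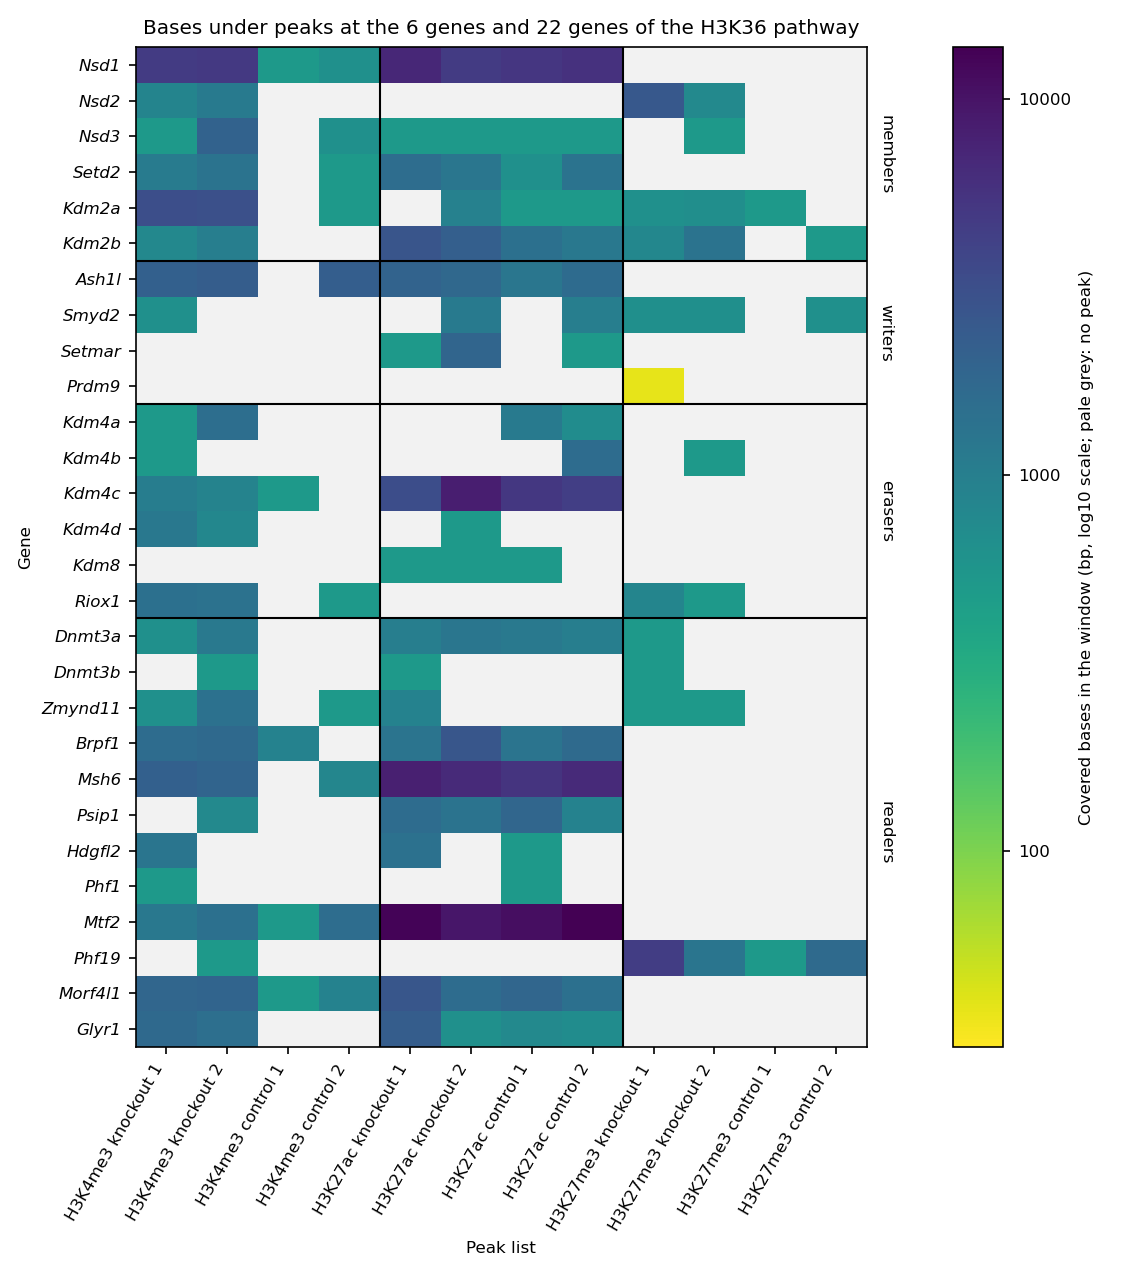
Bases under peaks (colour, bp on a log10 scale, pale grey for no peak) for the 6 genes and 22 further genes of H3K36 methylation (rows) in the 12 lists (columns, knockout left of control for each mark). H3K4me3 is present at all 6 members and 12 of the 22 others in both knockout lists.

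Genes with the most similar covered bases were sought by the mean absolute difference over the 12 lists. These distances are not scaled to coverage, which averaged 2795 bp per list at Nsd1 and 441.7 bp at Nsd2. A close gene can also differ in a single mark. Nsd1 was closest to Usp24 (621 bp) and Kansl1 (626 bp). H3K4me3 covered 1878 and 1446 bp of Usp24 in the knockout, against 1002 and 643 bp in the control. At Kansl1 it covered 3407 and 3924 bp in the knockout, against 0 and 501 bp in the control. Nsd2 was closest to Grhl1 (122 bp) and Slc1a2 (142 bp), though Slc1a2 had H3K4me3 in knockout replicate 1 alone. Nsd3 was closest to Tinf2 (126.5 bp) and Zfp786 (154 bp). Setd2 was closest to Cep250 (108.4 bp) and Dnajc13 (108.5 bp), 2 genes with H3K4me3 in both knockout lists and no H3K27me3. Kdm2a was closest to Rnf114 (280.5 bp) and Gnl1 (324 bp), neither of which had H3K27me3 in any list. For Kdm2b, Prdx1 differed by 301 bp.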

How the data were processed

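The measurements are ChIP-seq peaks for 3 histone marks, with 2 Mettl14 knockout and 2 Mettl14 control libraries per mark, grouped by their titles. The submitters' processing notes name HOMER, SAMtools, Bowtie2 2.4.1, Trimmomatic 0.38, CASAVA and build mm10, without roles. Peak calling settings, and whether inputs or the spike-in chromatin named in the labels' protocols entered them, were not given in the sources used here. The deposited lists were called per library, and their deposited score column is the constant 1 for every peak and was not used. Starts and ends of the deposited peaks, in base pairs, are the measurements.

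Gene spans came from a RefSeq table of GRCm38.p6, without strand, and annotated starts from its promoter table. Covered bases are those under peaks in a gene's span and 5 kb either side, and 1 bp sufficed for a call. "Like span" means a span within the members' range. Mitochondrial genes were left out. Members, lists and rules were chosen with earlier results of these data known. All members are named. Of the pathway list, those named have H3K4me3 in the knockout alone (up to 6), any mark in the control alone, or H3K27me3 in both lists of a condition, besides those called in both control lists. For each member, the 2 closest genes are named, without predicted genes, clones and genes whose windows overlap the member's. Of these closest genes, 1 is not reported here.

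No test was made on the members. The counting was tested on simulated data before use. Computations used Python 3.11.15, numpy 2.4.6 and pandas 2.3.3. Windows, peak rules, list lengths and left-out lists were varied.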

Additional observations from a re-analysis of the deposited data

How the results depend on the processing

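No paired analysis was possible because the values come from no test, although the groups share replicate numbers. With 1 list left out in turn, 2 to 5 members had H3K4me3 in the knockout alone (2 with all lists), 5 to 6 had more bases in both knockout lists (5), and log2 ratios of summed bases were 2.44 to 4.62 (3.15). For H3K27me3 the ranges were 1 to 2 (1), 3 to 4 (3) and 2.71 to 3.00 (2.86), and for H3K27ac 0 (0), 1 to 3 (1) and 0.12 to 0.41 (0.27). Around annotated starts or gene ends, 4 members had H3K4me3 and 2 had H3K27me3 in the knockout alone, and for H3K27ac 2 had more bases in both knockout lists with a log2 ratio of 0.82. Over the span alone the H3K27ac values were 2 and 0.065, and the H3K27me3 log2 ratio was 3.00. At equal list length 0 members had H3K4me3 in the knockout alone, 2 had more H3K4me3 bases there, and the H3K27me3 log2 ratio was 2.64. That cut sets the widest knockout peaks against nearly all control peaks and breaks ties at 501 bp by position. Without peaks of the minimum width 3 members had H3K27me3 in the knockout alone, and for H3K4me3 Kdm2b no longer did while Setd2 and Kdm2a did. Around starts or gene ends, and without peaks of the minimum width, no H3K27me3 ratio could be given, since no control base was left. No shares of all genes are given beside the counts under these changed settings. The counts show only how far the main counts move.

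For the 15 pairs of gene and mark with a peak in any list, 150 values were recomputed, of which 127 moved by no more than the replicate SD, 18 moved further and 5 changed sign, all 5 for H3K27ac. Leaving out a list cannot shift a difference by more than that SD, although it can change the sign. The values with a list left out therefore do not show stability, and the 127 include such values. The knockout minus control difference of Nsd1, 301.5 bp, was -776.5 bp over the span alone and -794 to 1397 bp without either knockout replicate in turn. That of Kdm2a, -36 bp, was 465 bp without peaks of the minimum width and -501 to 429 bp without either knockout replicate in turn, and that of Kdm2b was -113.5 bp without peaks of the minimum width. The cause was not tested. Read depth is unknown and limits what a missing peak can show.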
